A study of Homo sapiens with 20 samples.

Results

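U2-OS cells, a human osteosarcoma line, held 45 genes that were near silent before irradiation and carried reads in every library 7 days after it. These genes were taken from the deposited count table by 2 limits. A gene had at most 5 counts in each of the 5 untreated libraries and at least 15 counts in each of the 5 libraries at 7 days post-IR. Symbols that start with LCE, MMP, COL, HIST or KIF were left out, which removed COL6A5, LCE1C, LCE1E, LCE5A and MMP1. The 45 genes came from 20314 rows, of which 4823 met the limit for untreated cells. Since the untreated and 7 days libraries chose the genes, values there and differences from them are a description. Counts of genes called in such a comparison are printed as a description too, and nothing is read from them. RNA-seq had been done on 4 groups of 5 libraries: untreated cells, cells irradiated with a single dose of 20 Gy and harvested after 1.5 h or 7 days, and NFKBIA knockdown cells. The knockdown cells carried an shRNA against NFKBIA, which encodes the NF-κB inhibitor IκBα, and were not irradiated. The study's figure descriptions give the shRNA as doxycycline-inducible, while its methods also list a constitutive vector and the labels name none. Cells were selected as clones in puromycin, and the number of clones is not given in the sources used here. Libraries with a scrambled shRNA were not analysed here, so the effects of the vector, of any doxycycline and of selection cannot be told apart from that of the knockdown. All groups shared the same line and culture medium.

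Cells with DNA damage that they cannot repair can leave the cell cycle for good and enter senescence, a state with a flat and enlarged shape and a secretory programme driven in part by NF-κB. IκBα holds NF-κB dimers in the cytoplasm, and its gene is itself an NF-κB target. The genes described here are known mainly from other cells, such as leukocytes, skin and gut epithelium, liver, neurons and muscle.

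The libraries held between 22535659 and 40390961 counts, of which the 45 genes together took between 60 and 2221. Their values therefore rest on few reads, and intervals given with ratios cover counting error only. Untreated replicate 5, the smallest library, stood apart from its group. Its counts differed from those of the other untreated libraries by a chi-square of 102.1 to 166.1 per gene, against 11.85 to 76.46 among those 4. Without it the limits found 51 genes, and since leaving out a library can only add genes, all 45 were among them. NFKBIA was 31.3 ± 7.25 CPM (counts per library size after TMM scaling, mean ± SD, n = 5 libraries) in untreated cells and 12.2 ± 0.667 CPM in the knockdown, lower as its label says. CDKN1A, the p53-induced cell cycle inhibitor p21, was 226 ± 17.3 CPM in untreated cells and 817 ± 13.3 CPM at 7 days. Of 8 osteoblast lineage markers, RUNX2, SPARC, ALPL and SPP1 had at least 196 counts in every library, while IBSP had at most 1 count and SP7 at most 3. The sum of the 8, most of it SPARC, was 2192 to 2417 CPM in untreated cells, 2067 to 2231 CPM at 1.5 h, 1452 to 1658 CPM at 7 days and 2229 to 2372 CPM in the knockdown. SPP1 had a mean of 12.03 CPM in untreated cells and 74.32 CPM at 7 days, and ALPL 26.86 CPM in untreated cells and 6.843 CPM in the knockdown. The part of these markers in the results was not tested.

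The DNA upstream of these genes was examined first, as a feature that the counts did not enter. RefSeq promoters (GRCh38.p14) were matched by gene identifier for 38 of the 45 genes, and the 250 bases before the most upstream start were searched on both strands. The promoters were poor in CG dinucleotides. The median ratio of observed to expected CG was 0.233, against 0.267 for the other genes silent in untreated cells and 0.747 for all genes of the table with a promoter. A ratio of 0.6 or more was found in 4 of the 38, those of ALDH1A3, BNC1, NPAS3 and RSAD2 (10.5%), against 22.8% of the other silent genes and 65% of all. The TATA box letters TATAAA occurred in 5 of 38 (13.2%), compared with 20.7% of the other silent genes and 8.89% of all. A κB match, written as GGGNNNNNCC, occurred in 14 of 38 (36.8%), compared with 46.4% and 64%. The AP-1 letters TGANTCA occurred in 6 of 38 (15.8%), compared with 7.59% and 4.97%. No motif contains the letters of another. The shares are descriptions over few genes, and a match is not evidence that a factor binds.

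The 120 bases before the start are shown for the 4 genes with an AP-1 match in that stretch and for 2 of the genes that differed between the knockdown and 1.5 h libraries, ANGPTL4 and FETUB, whose stretches hold a TATA box. Each is written 5′ to 3′ on the strand of the gene, in RefSeq GRCh38.p14, with matches to the 3 motifs in capitals.
PNLIPRP3, chr10:116427727-116427846, + strand: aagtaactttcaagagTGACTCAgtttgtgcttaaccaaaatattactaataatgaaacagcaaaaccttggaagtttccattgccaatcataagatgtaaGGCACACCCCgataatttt
RNASE7, chr14:21042242-21042361, + strand: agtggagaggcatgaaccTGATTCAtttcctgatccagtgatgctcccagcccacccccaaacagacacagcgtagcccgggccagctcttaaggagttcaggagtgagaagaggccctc
SH2D1B, chr1:162412137-162412256, - strand: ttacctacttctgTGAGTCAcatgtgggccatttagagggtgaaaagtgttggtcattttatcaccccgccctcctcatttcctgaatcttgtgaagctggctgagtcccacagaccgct
VAV3, chr1:107688500-107688619, - strand: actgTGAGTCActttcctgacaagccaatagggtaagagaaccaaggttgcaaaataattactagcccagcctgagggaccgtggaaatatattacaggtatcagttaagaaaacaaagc
ANGPTL4, chr19:8364035-8364154, + strand: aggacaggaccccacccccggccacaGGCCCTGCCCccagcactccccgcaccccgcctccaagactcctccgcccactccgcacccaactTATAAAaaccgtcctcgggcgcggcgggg
FETUB, chr3:186635849-186635968, + strand: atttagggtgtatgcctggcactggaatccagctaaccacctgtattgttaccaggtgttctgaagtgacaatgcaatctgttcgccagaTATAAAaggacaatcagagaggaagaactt

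The TATA boxes of FETUB and ANGPTL4 lie close to the start, and the capitals further upstream in ANGPTL4 mark a κB match on the opposite strand. In PNLIPRP3, the gene with the highest level at 7 days, the AP-1 match comes first and a κB match on the opposite strand lies nearer the start.

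At 7 days the summed level of the 45 genes was between 57.43 and 66.28 CPM, while it was between 2.477 and 2.94 CPM in untreated cells, between 3.628 and 4.7 CPM at 1.5 h and between 5.172 and 6.085 CPM in the knockdown. In bulk RNA, more cells that express a gene cannot be told apart from more RNA in each cell. All 45 genes were called higher at 7 days than in untreated cells, since the limits chose them so. Of all 14992 genes tested, 16.7% were called higher in that comparison. From the pooled counts of a group, the ratio of 7 days to untreated ranged from 6.099 for CD163 to 140.7 for PYHIN1, with a median of 19.01 in which 2 genes entered at a lower bound. For these, FCRL5 and PDE6C, with 0 counts in all untreated libraries, it was at least 46.31 and at least 38.59, computed against 3 counts over the group. Replicates at 7 days varied by a coefficient of variation between 5.601% for TREM1 and 38.78% for GRIA1.

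**Figure D1:**
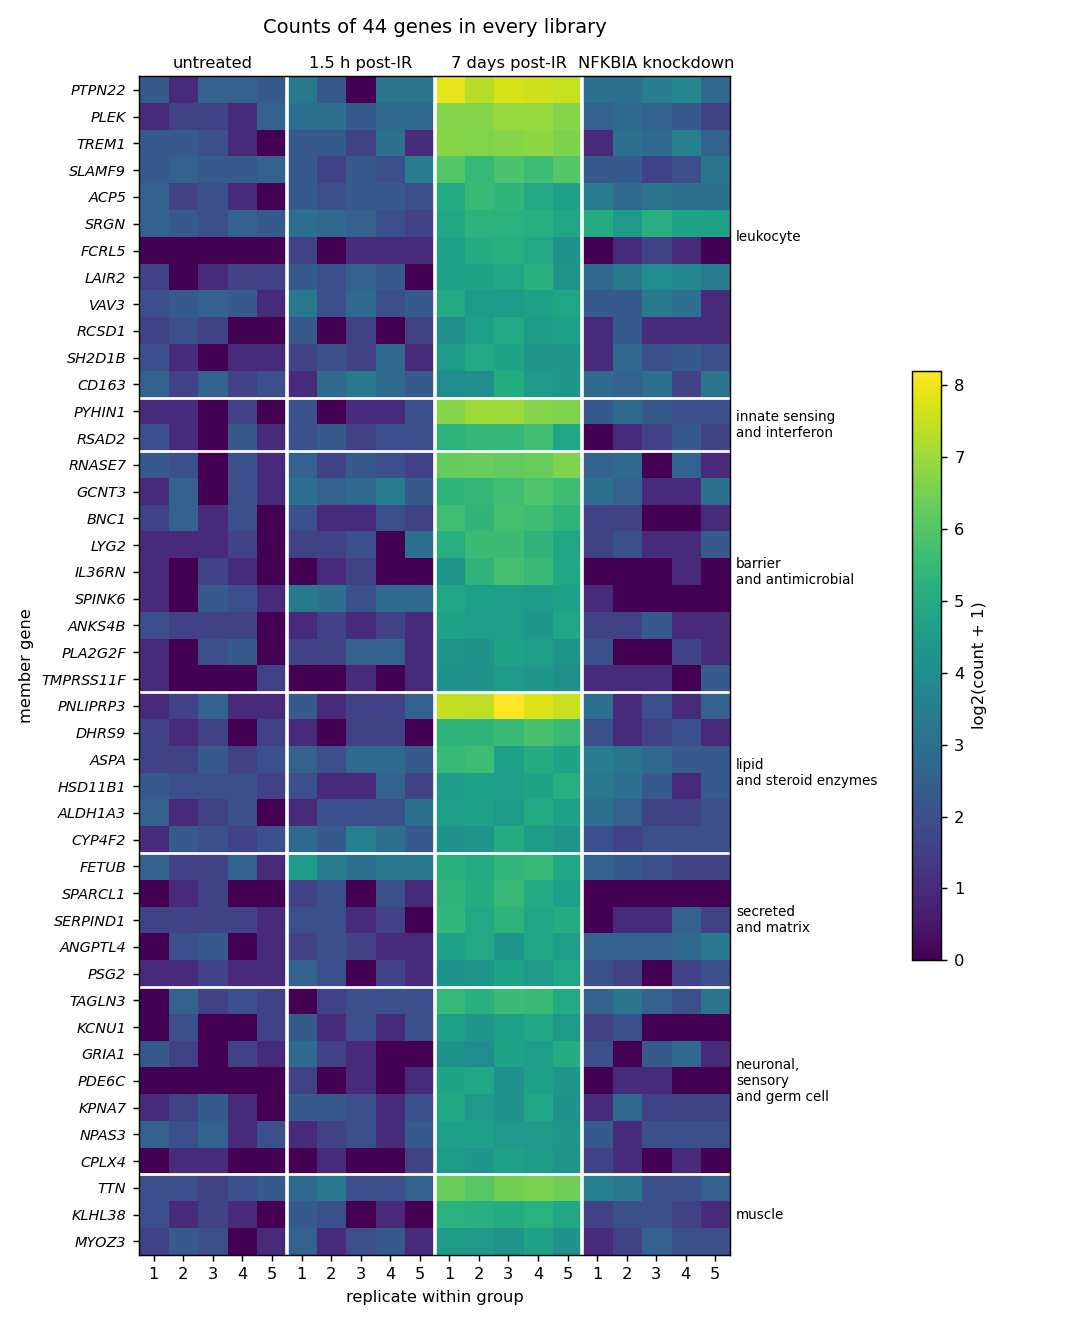
Counts of 44 of the 45 genes (rows, grouped by role and ordered by level at 7 days within a role) in each of the 20 libraries (columns, 5 replicates a group), with colour as log2(count + 1). The 7 days columns are bright in every row, from 15 counts up to the 293 of PNLIPRP3 in replicate 3, and the SRGN row is also bright in the knockdown, with 20 to 34 counts.

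Genes known from leukocytes formed the largest group, with 12 of the 45. Their summed level was 0.955 ± 0.190 CPM in untreated cells, 1.31 ± 0.149 CPM at 1.5 h, 21.2 ± 0.602 CPM at 7 days and 2.76 ± 0.458 CPM in the knockdown. PTPN22, a tyrosine phosphatase that restrains antigen receptor signalling in lymphocytes, led this group. It had 4, 1, 5, 5 and 4 counts in untreated libraries, 9, 4, 0, 8 and 8 at 1.5 h, 236, 157, 207, 194 and 178 at 7 days and 7, 7, 10, 13 and 6 in the knockdown. The 7 days libraries lay far above all others, and every knockdown library lay above every untreated one. PLEK encodes pleckstrin, the major protein kinase C substrate of platelets, and had 102, 103, 120, 120 and 103 counts at 7 days against at most 7 in any other library. TREM1, an activating receptor of neutrophils and monocytes, had 106, 100, 103, 110 and 95 counts at 7 days against at most 11 elsewhere, the 11 in knockdown replicate 4. SLAMF9, a SLAM family receptor, had 44 to 65 counts at 7 days, 4 to 5 in untreated cells and 2 to 10 in the other groups.

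The other leukocyte genes had between 15 and 45 counts at 7 days. They were ACP5, the tartrate-resistant acid phosphatase of osteoclasts and macrophages, SRGN, the granule proteoglycan serglycin, FCRL5, an Fc receptor-like protein of B cells, and LAIR2, a secreted decoy of the collagen receptor LAIR1. VAV3, a guanine nucleotide exchange factor of haematopoietic cells, RCSD1, which binds the actin capping protein, SH2D1B, an adaptor of SLAM family receptors in natural killer cells, and CD163, the hemoglobin scavenger receptor of macrophages, completed them. FCRL5 was absent from all untreated libraries and had 24, 33, 34, 30 and 17 counts at 7 days. CD163 lay at the edge of the limits, with 15, 16, 33, 20 and 19 counts at 7 days against 2 to 5 in untreated cells. It overlaps CD163L1 on the same strand in GENCODE 29, and CD163L1 was itself called higher at 7 days with a log2 fold change of 1.69, so that reads of the pair may have been shared.

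Of the leukocyte markers, CD14, a receptor of monocytes, had 0 to 7 counts in untreated cells and 7 to 14 at 7 days. LYZ, which encodes lysozyme, had 0 to 1 and then 1 to 4. CSF1R, a receptor of macrophages, had 16 to 25 and then 17 to 27, and CD3E, of the T cell receptor complex, 0 to 12 and then 0 to 1. PTPRC, the common leukocyte antigen, had 25 to 42 counts in untreated cells, 35 to 54 at 7 days and 5 to 18 in the knockdown. The sum of the 6 leukocyte markers ranged from 1.516 to 3.092 CPM in untreated cells and from 2.134 to 2.952 CPM at 7 days, so that both groups overlapped. At 1.5 h it ranged from 1.209 to 1.816 CPM. In the knockdown it ranged from 0.9211 to 1.266 CPM, below all untreated libraries but overlapping with 1.5 h. PTPRC and CSF1R made up most of this sum. The part of such cells in the result was not tested.

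PYHIN1 and RSAD2 are known from innate sensing and the interferon response. PYHIN1, a nuclear DNA-binding protein of the PYHIN family, had 1, 1, 0, 2 and 0 counts in untreated libraries and 3, 0, 1, 1 and 3 at 1.5 h. At 7 days it had 103, 130, 126, 102 and 98 counts, and in the knockdown 4, 6, 4, 3 and 3. Of the genes with counts in untreated cells, it had the largest ratio of 7 days to untreated, 140.7 with a 95% interval from 54.64 to 518.1. The other members of its family had different levels. IFI16 was at 123.4 CPM in untreated cells and 213 CPM at 7 days, AIM2 had at most 1 count in untreated libraries and 6 to 11 at 7 days, and MNDA had 0 to 6 counts at 7 days. RSAD2 encodes viperin, an antiviral enzyme, and had 38, 43, 43, 50 and 28 counts at 7 days against at most 4 in any other library. Among 51 interferon-stimulated genes listed from general knowledge, 40 were tested and 22 were called higher at 7 days than in untreated cells, while 1 was called lower, beside 16.7% and 14.4% of all genes tested. The median log2 fold change of this list was 0.58, beside 0.01 over all genes tested.

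Another 10 genes belong to epithelial barriers and antimicrobial defence, at 0.494 ± 0.177 CPM in sum in untreated cells and 11.2 ± 1.15 CPM at 7 days. RNASE7, an antimicrobial ribonuclease of skin, had 75, 79, 74, 77 and 98 counts at 7 days against at most 6 in any other library. It overlaps NDRG2 on the other strand, and the strand setting of the counting is not stated. GCNT3, which branches mucin O-glycans, had 40 to 60 counts at 7 days, and with 4 to 10 counts at 1.5 h and 0.179 ± 0.0682 CPM it was among the 5 genes of highest level there. BNC1, a zinc finger protein of basal keratinocytes, had 39 to 54 counts at 7 days. LYG2, a lysozyme G-like protein, had 28 to 48. IL36RN, the antagonist of the interleukin-36 receptor and the only cytokine family gene among the 45, had 18, 39, 54, 46 and 28 counts at 7 days. Elsewhere it had 4 counts in all untreated libraries together, 3 at 1.5 h and 1 in the knockdown. SPINK6, an inhibitor of skin kallikreins, ANKS4B, a scaffold of the intestinal brush border, PLA2G2F, a secreted phospholipase, and TMPRSS11F, a membrane serine protease, had 16 to 27 counts at 7 days. The sum of the epithelial markers EPCAM, CDH1, KRT5 and KRT14 was between 9.049 and 12.62 CPM in untreated cells, between 8.775 and 10.84 CPM at 1.5 h, between 3.621 and 4.205 CPM at 7 days and between 3.519 and 4.215 CPM in the knockdown. The sum was thus lower both at 7 days and in the knockdown. From untreated cells to the knockdown, mean KRT14 went from 4.816 to 0.4914 CPM and CDH1 from 1.827 to 0.4402 CPM. KRT5 went from 0.4565 to 0.05768 CPM, while EPCAM went only from 3.397 to 3.011 CPM. The part of these markers in the values of the barrier genes was not tested.

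Enzymes of lipid, steroid and amino acid metabolism made up 6 of the 45. PNLIPRP3, a pancreatic lipase-related protein, had the highest level of all at 7 days, 6.44 ± 1.27 CPM. It had 1, 2, 5, 1 and 1 counts in untreated libraries and 4, 1, 2, 2 and 5 at 1.5 h. At 7 days it had 175, 171, 293, 215 and 181, and in the knockdown 7, 1, 3, 1 and 5. Scaled to gene length it also came first, at 2.74 RPKM, ahead of RNASE7 at 1.71, SLAMF9 at 1.52 and PTPN22 at 1.35 RPKM, while TTN, with a length of 118327 bases, came last at 0.0217 RPKM. DHRS9, a retinol and steroid dehydrogenase, had 38 to 56 counts at 7 days and at most 3 in any other library. ASPA, which cleaves N-acetylaspartate, had 24 to 49, HSD11B1, which regenerates active glucocorticoid from cortisone, 22 to 35, and ALDH1A3, which makes retinoic acid, 21 to 31. CYP4F2, a fatty acid omega-hydroxylase, had 17 to 33 counts at 7 days, 6, 4, 11, 7 and 4 at 1.5 h and 3, 2, 3, 3 and 3 in the knockdown. Every 1.5 h library lay above every knockdown library for CYP4F2, but the difference did not pass the test (log2 fold change −0.96, adjusted p = 0.0598). Reads of its close paralogs may be counted on it. GENCODE 29 also places GCNT3, RSAD2, ACP5, SERPIND1, ANKS4B and ASPA over a gene on the other strand (GTF2A2, CMPK2, ZNF627, PI4KA, CRYM and SPATA22).

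The 5 secreted and matrix proteins were FETUB, a plasma inhibitor of metalloproteinases, SERPIND1, the thrombin inhibitor heparin cofactor II, ANGPTL4, an inhibitor of lipoprotein lipase, SPARCL1, the matricellular protein hevin, and PSG2, a pregnancy-specific glycoprotein of trophoblast. Their sum was 0.248 ± 0.0401 CPM in untreated cells, 0.518 ± 0.226 CPM at 1.5 h, 4.73 ± 0.149 CPM at 7 days and 0.426 ± 0.128 CPM in the knockdown. SERPIND1 had 28 to 41 counts at 7 days and PSG2 17 to 28, each against at most 5 in any other library. PSG2 belongs to a family of near-identical copies, so that its counts are uncertain.

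Neuronal, sensory and germ cell genes numbered 7. TAGLN3, a calponin family protein of neurons, had 31 to 48 counts at 7 days. GRIA1, the GluA1 subunit of AMPA receptors, was close to the lower limit with 17, 15, 26, 23 and 33 counts at 7 days. CPLX4, a complexin of retinal synapses, had 18 to 25 counts and PDE6C, the phosphodiesterase of cone photoreceptors, 17 to 29. KCNU1, a sperm potassium channel, KPNA7, an importin of oocytes, and NPAS3, a transcription factor of brain, had 17 to 29 counts. Of the 3 muscle genes, TTN, which encodes titin, had 79, 66, 87, 93 and 84 counts at 7 days against at most 11 elsewhere, and overlaps several antisense genes. MYOZ3, a protein of the muscle Z-disc, had 17 to 25 and KLHL38, a kelch family protein, 29 to 37. Of the muscle markers, DES, which encodes desmin, had 12 to 32 counts in untreated cells and 12 to 19 at 7 days, while the muscle factors MYOD1 and MYOG had at most 4 counts and at most 1 count in any library. The neuron markers RBFOX3 and SNAP25 were higher at 7 days, with a sum of 15.71 to 18.69 CPM in untreated cells, 15.91 to 16.57 CPM at 1.5 h, 21.54 to 26.51 CPM at 7 days and 14.49 to 16.04 CPM in the knockdown. RBFOX3, a splicing factor of neurons, had a mean of 4.13 CPM in untreated cells and 7.998 CPM at 7 days. The part of these markers in the result was not tested.

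**Figure D2:**
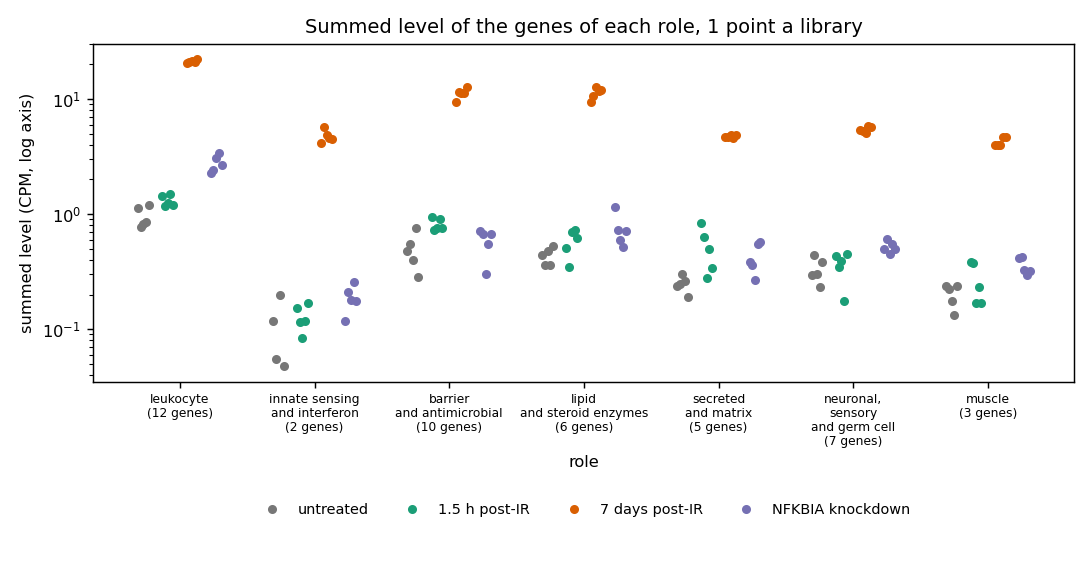
Summed CPM (log axis) of the genes of each role, 1 point for each library and 1 colour for each group. The 7 days points lie above all others in all 7 roles, and the knockdown points of the leukocyte genes, 2.266 to 3.372 CPM, lie above the untreated and 1.5 h points, with SRGN alone at a mean of 0.127 CPM at 1.5 h and 0.881 CPM in the knockdown. In 1 untreated library the innate sensing genes have a sum of 0, which is not drawn.

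At 1.5 h post-IR none of the 45 genes reached 15 counts in every library, 27 had at most 5 counts in every library, and 18 lay between. In the knockdown 1 gene, SRGN, reached 15 counts in every library, 23 had at most 5 in every library, and 21 lay between. A total of 18 genes stayed at or under 5 counts in all libraries of both groups, and 13 exceeded 5 counts in at least 1 library of each. Of the other 4773 rows silent in untreated cells, 96.27% had at most 5 counts in every 1.5 h library and 96.52% in every knockdown library. Every 7 days library lay above every 1.5 h library in CPM for 45 genes, beside 31.9% of all genes tested, and above every knockdown library for 44, beside 30.6%, with SRGN as the exception. The libraries that shared a sequencing lane with 7 days libraries had summed levels close to those of the others, with a ratio of 0.98 at 1.5 h (2 against 3 libraries) and 0.9931 in the knockdown (1 against 4). In raw counts within lane 4, the 7 days libraries exceeded the 1.5 h libraries (2 of each) for 45 genes. Within lane 5 they exceeded the 1 knockdown library for 44. The limits had set the 7 days counts high and the share over all genes was not computed, so nothing is read from these numbers.

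The limit on the untreated libraries raises any difference from them, so that the values of 1.5 h and of the knockdown against untreated cells are given as a description. At 1.5 h edgeR's quasi-likelihood test called 3 of the 45 genes higher, beside 2.08% of all genes tested, and nothing is read from this count. The 3 were FETUB, SPINK6 and PLEK. FETUB had 5, 2, 2, 5 and 1 counts in untreated libraries and 21, 10, 7, 9 and 9 at 1.5 h, and its groups did not overlap, as for 7.42% of all genes tested. SPINK6 had 1, 0, 4, 3 and 1 counts and then 9, 7, 3, 6 and 6. PLEK had 1, 2, 2, 1 and 5 and then 7, 7, 4, 6 and 6. In SPINK6 and PLEK the groups overlapped. The call of SPINK6 was lost without untreated replicate 2 and in 5 of the other alternatives, and that of PLEK without any of 8 single libraries (untreated replicates 1 to 4 and 1.5 h replicates 1, 2, 4 and 5), under DESeq2 and under the replicate block. Of 20 alternatives, PLEK kept its call in 6 and SPINK6 in 14, and when the lane entered as a factor, PLEK turned from a log2 fold change of 1.24 to −0.52.

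In the knockdown 8 of the 45 genes were called higher than in untreated cells, beside 5.18% of all genes tested, and 1, SPINK6, was called lower, beside 7.53%. From these counts nothing is read either, and the call of SPINK6 was lost without any of 6 single libraries, untreated replicates 3 and 4 and knockdown replicates 2 to 5. The 8 were LAIR2 (log2 fold change 2.86), SRGN (2.71), PYHIN1 (2.20), ANGPTL4 (1.88), ACP5 (1.78), ASPA, TAGLN3 and PTPN22. PTPN22 lost its call without untreated replicate 1, 2 or 3 or knockdown replicate 3 or 4, TAGLN3 without untreated replicate 1 or 3 or knockdown replicate 2 or 5, both also under the replicate block, and ASPA without knockdown replicate 1. With the lane as a factor the changes of PTPN22 and TAGLN3 turned to −0.83 and −0.34.

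The values of the knockdown and 1.5 h libraries did not enter the limits, and these groups were compared by a test. All 45 genes passed the filter on low counts, 44 of them only through the 7 days libraries, where the limits had chosen them high. Those libraries are not part of this comparison. With a filter on the compared groups, SRGN alone was tested, and it was called higher. The other calls below rest on genes that the 7 days libraries let in, with few counts in both groups. The groups differ both in the shRNA and in irradiation. In the knockdown 6 of the 45 genes were called higher than at 1.5 h, beside 6.54% of all genes tested, and 3 were called lower, beside 7.6%. In either direction this is 20% of the 45, beside 14.1% of all genes tested. Every knockdown library lay above every 1.5 h library in CPM for 6 genes, beside 21.1% of all genes tested, and below for 3, beside 22.6%. The median log2 fold change was 0.28 over the 45 genes and 0.00 over all genes, with 29 above 0 and 16 below.

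SRGN, which encodes serglycin, had 7, 6, 5, 3 and 2 counts at 1.5 h and 32, 20, 34, 26 and 25 in the knockdown, next to 5, 4, 3, 5 and 4 in untreated cells and 29, 38, 37, 35 and 28 at 7 days. The knockdown libraries lay above all untreated and 1.5 h libraries and overlapped with those at 7 days. The difference from 1.5 h was 2.74 on the log2 scale (SE 0.24, adjusted p = 1.24e-08). The ratio of 7 days to knockdown was 1.187 with a 95% interval from 0.9414 to 1.499. This proteoglycan carries proteases and chemokines in the granules of hematopoietic cells and is also secreted by tumour cells.

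LAIR2 had 4, 3, 5, 4 and 0 counts at 1.5 h and 6, 9, 15, 13 and 10 in the knockdown (log2 fold change 1.89, SE 0.42, adjusted p = 0.0011). It remained below 7 days, where it had 25, 26, 29, 36 and 18. ANGPTL4 had 2, 3, 2, 1 and 1 counts at 1.5 h, 5, 5, 5, 6 and 9 in the knockdown and 25, 30, 19, 28 and 23 at 7 days (log2 fold change from 1.5 h to knockdown 1.86, SE 0.49, adjusted p = 0.00416). The groups did not overlap in either gene. TAGLN3 had 0, 2, 3, 3 and 3 counts and then 5, 8, 5, 3 and 8 (1.54, SE 0.48, adjusted p = 0.0134), and ACP5 4, 3, 4, 4 and 3 and then 10, 6, 8, 7 and 7 (1.25, SE 0.35, adjusted p = 0.00702). PYHIN1, with 8 counts in all 1.5 h libraries together and 20 in those of the knockdown, changed by 1.45 (SE 0.51, adjusted p = 0.0272), and this call was lost without any of 4 single libraries, 1.5 h replicate 2, 3 or 4 or knockdown replicate 2 (adjusted p between 0.0581 and 0.085). Over these 6 genes, the ratio of 7 days to knockdown ran from 1.187 for SRGN to 27.22 for PYHIN1.

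Lower in the knockdown were SPINK6, SPARCL1 and FETUB. SPINK6 had 9, 7, 3, 6 and 6 counts at 1.5 h and 1, 0, 0, 0 and 0 in the knockdown (log2 fold change −4.11, SE 0.69, adjusted p = 5.68e-05), and the ratio of 1.5 h to knockdown was 26.99 with a 95% interval from 4.498 to 1100. SPARCL1 had 2, 3, 0, 3 and 1 counts at 1.5 h and 0 in all knockdown libraries (adjusted p = 0.013), where it was at least 2.612-fold lower, computed against 3 counts over the group. One 1.5 h library also had 0, so that the groups overlapped. FETUB had 21, 10, 7, 9 and 9 counts at 1.5 h and 5, 4, 3, 2 and 2 in the knockdown (log2 fold change −1.57, SE 0.35, adjusted p = 0.00113). At 7 days all of these had 22 counts or more in every library.

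**Figure D3:**
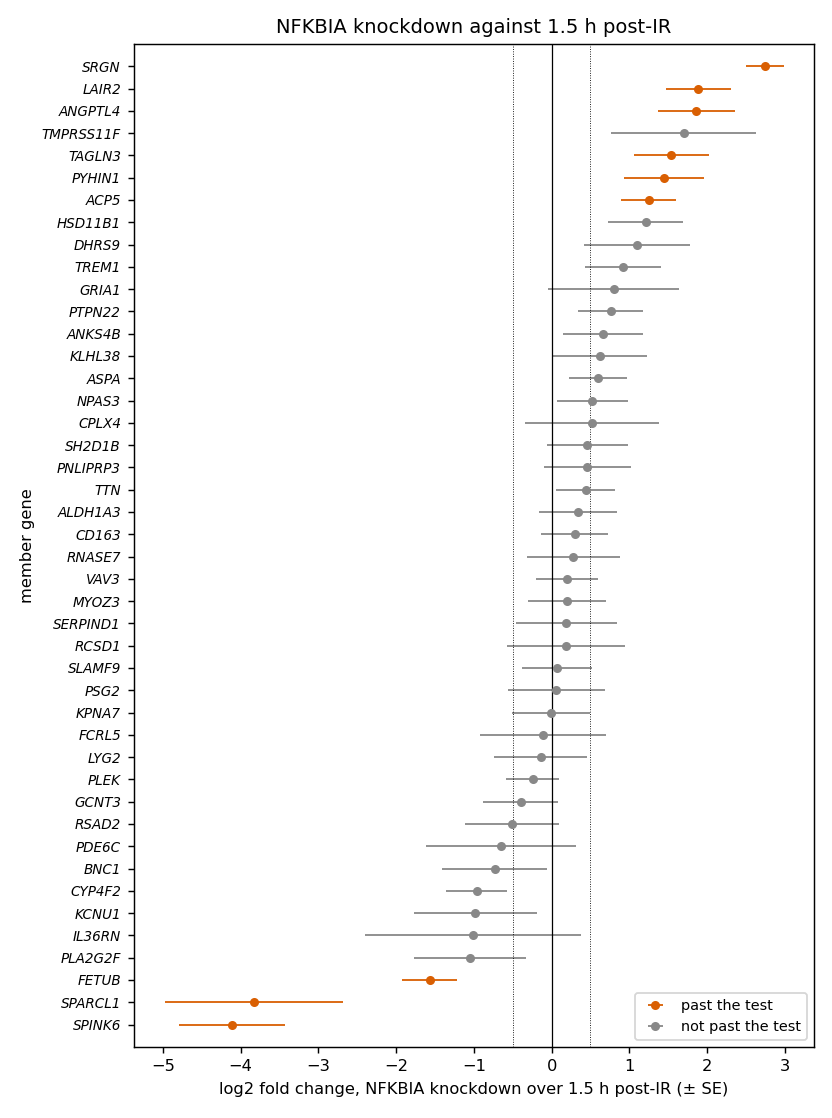
Log2 fold change of the knockdown over 1.5 h post-IR with its standard error for 44 of the 45 genes, ordered by size, with orange for genes past the test and dotted lines at 0.5 on either side of 0. The 6 genes called higher run from 1.25 for ACP5 to 2.74 for SRGN, and the 3 called lower from −1.57 for FETUB to −4.11 for SPINK6.

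An exact permutation test of log2 CPM gave 0.00794, the smallest two-sided p that 5 libraries against 5 allow, for 8 of the 9 genes and 0.0476 for SPARCL1. The 9 genes had been called on the same libraries, so that this test adds no separate evidence. Its smallest p marks groups without overlap, which 21.1% (above) and 22.6% (below) of all genes tested had. CYP4F2, which was not called, also had 0.00794 in this test. Without the libraries on lanes of 7 days libraries, edgeR's test called 5 genes higher and 2 lower, beside 5.61% and 7.24% of all genes tested. The 5 included a gene not called in the main fit. The calls of ACP5, SPARCL1 and PYHIN1 were lost (adjusted p = 0.0678, 0.0592 and 0.0582). With these fewer libraries the direction of all 3 was kept, with log2 fold changes of 1.15 for ACP5 and 1.73 for PYHIN1. The lanes of the 1.5 h libraries (3 and 4) and of the knockdown libraries (5 and 6) did not overlap. With the lane as a factor, a fit that rests on the lanes shared with the other groups, only SRGN was called among the 45, with a log2 fold change of 3.63 (adjusted p = 0.00021), and 3 genes reached an unadjusted p under 0.05 as higher and none as lower, beside 12.3% and 13.1% of all genes tested. The other 8 kept their direction, with adjusted p between 0.0884 and 0.729. The log2 fold changes of ANGPTL4 (2.42) and ACP5 (1.79) were larger than without the lane, and those of LAIR2 (1.42), PYHIN1 (1.07), TAGLN3 (0.67), SPINK6 (−2.31) and FETUB were smaller in size. Over all genes tested, calls went from 981 higher and 1140 lower to 527 and 659.

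**Figure D4:**
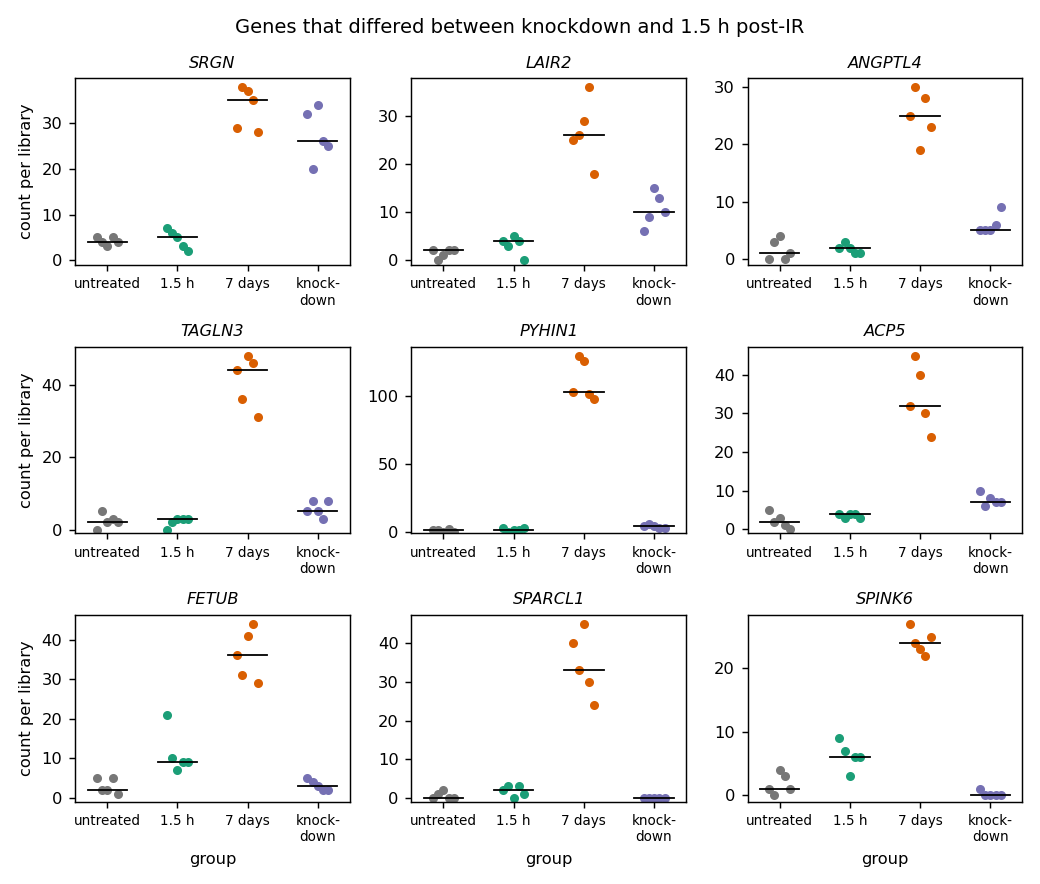
Counts per library in the 4 groups for the 9 genes that differed between the knockdown and 1.5 h post-IR, 1 point for each library and a line at the median. Knockdown points reach the range of 7 days only for SRGN, with 20 to 34 counts beside 28 to 38, and lie at 0 or 1 for SPINK6 and SPARCL1.

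None of 45 rows listed as NF-κB genes from general knowledge was among the genes described here. Only 6 of them had met the limit on untreated libraries, so that few could be among these genes. Of the 45 NF-κB rows, 39 were tested. Between knockdown and 1.5 h 2 were called higher and 19 lower, beside 6.54% and 7.6% of all genes tested, and the median log2 fold change was −0.39. At 7 days against untreated cells, 23 were called higher and 1 lower, beside 16.7% and 14.4%. The list of p53 targets likewise held none of the 45 genes, and only 3 of its 58 rows had met the limit on untreated libraries. Of its 55 rows tested, 46 were called higher at 7 days, beside the same 16.7%. Between knockdown and 1.5 h, 4 of them were called higher and 22 lower, with a median log2 fold change of −0.29.

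Near the limits, the choice turned on single counts. PNLIPRP3, PTPN22 and PLEK had 5 counts in at least 1 untreated library, as had 14 of the 45 genes in all. TREM2, a receptor of macrophages with 148 to 255 counts at 7 days, SERPINB3 with 76 to 117 and PPY with 58 to 94 had 6 counts in an untreated library and were left out, with 17 such rows. GRIA1 and CD163 had 15 counts in their lowest 7 days library, whereas AMZ1, TMEM156 and JCHAIN had 14.

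The 45 genes were spread over 18 chromosomes, with 9 on chromosome 1, 6 on chromosome 2 and 5 on chromosome 19, and no 2 of them were neighbours in the order of the table's genes in GENCODE 29. Of their 90 neighbours, which were examined after the genes were known, 62 were tested. In the comparison of 7 days with untreated cells 20 were called higher (32.26%) and 7 lower (11.29%), beside 16.7% and 14.4% of all genes tested. Some neighbours are relatives of the gene beside them. IL36B, next to IL36RN, had at most 7 counts in untreated libraries and at least 55 at 7 days (log2 fold change 3.67). SPINK13, next to SPINK6, had at most 2 and at least 12 (3.67). IFI16 lies next to PYHIN1 and had a log2 fold change of 0.79. CD163L1, next to CD163, was called higher too (log2 fold change 1.69), as was a row without a symbol next to PSG2 (2.75). Some other relatives were not called higher. FCRL4, next to FCRL5, was called lower (log2 fold change −0.76), and LYG1 beside LYG2 (0.06) and CYP4F11 beside CYP4F2 (0.30) were not called. In other places the neighbours were near silent. IL1F10, on the other side of IL36RN, had at most 1 count in untreated libraries, and TRAF3IP3 beside HSD11B1, CCDC172 and PNLIP beside PNLIPRP3 and RNASE8 and RNASE13 beside RNASE7 had too few counts to be tested. Relatives side by side share sequence, and the counting of reads with several matches is not stated in the sources used here.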

How the data were processed

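RNA of U2-OS cells in 4 groups of 5 libraries had been sequenced by the authors as stranded mRNA libraries, with single-end reads from an Illumina HiSeq 2000. The authors deposited raw read counts per gene, without normalization, for 20314 rows, 1679 of them without a symbol, with a gene length. The submitters' processing notes name bcl2fastq, Trimmomatic, STAR 2.4.2a and hg19. The counting tool, annotation and strand setting are not given in the sources used here.

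edgeR 4.0.16 in R 4.3.3 was used for the main tests. The 14992 genes kept by filterByExpr (minimum count 10) were scaled by TMM and fitted by 1 quasi-likelihood model over the 20 libraries without covariates. A gene was called with a Benjamini-Hochberg adjusted p under 0.05 over all genes tested and a log2 fold change above 0.5 in size. Standard errors were derived from the F statistic. Ratios between groups used pooled counts with exact binomial 95% intervals, or 3 counts over a group at 0. Single genes were compared by a two-sided exact permutation test of log2 CPM (prior count 2). RPKM were computed from the deposited length. On simulated counts the edgeR test and DESeq2 1.42.0 were tested before use.

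The genes, lists and tests were chosen with earlier results of these data known. Genes named by rule were the 12 of highest level at 7 days, those called between knockdown and 1.5 h, the 5 of highest level at 1.5 h, members of gene lists and those at the limits. All other members were named too, and neighbours were picked after their values were seen. Roles came from general knowledge after the genes were known. GENCODE 29 gave chromosomes, order and overlaps, and RefSeq (GRCh38.p14) the promoters. Proteins were not analysed here, and the values of 1 gene of the 45 are not reported here by name. Alternatives were RLE factors, library size alone, no filter, a filter on or a fit of only the compared groups, DESeq2, the replicate or lane as a factor, stricter thresholds, other limits and leaving out each library. Figures were drawn with matplotlib 3.10.9.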

Additional observations from a re-analysis of the deposited data

Results flagged for a closer look

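The levels of the genes with a median above 5 counts in a group, and the summed level of the 45 genes, were searched in 63 sets of 5 libraries for a library apart from the other 4, by a gap over 0.71 of the range. Chance marks about 1 set in 20. The search marked 2 sets. FETUB in replicate 1 at 1.5 h had 0.534 CPM, while the other 4 libraries had 0.197 to 0.288 CPM. Without this library its log2 fold change was −1.27 from 1.5 h to the knockdown and 1.40 from untreated cells to 1.5 h, and both calls were kept. HSD11B1 in replicate 5 at 7 days had 1.25 CPM, while the other 4 libraries had 0.644 to 0.791 CPM.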

How the results depend on the processing

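Between knockdown and 1.5 h, 6 genes were called higher and 3 lower. Bonferroni correction and the lane as a factor each left 1 higher (SRGN) and 0 lower in edgeR, with 4 and 0 lower at an unadjusted p under 0.05, beside 24.5% and 13.1% of all genes tested. A filter on the compared groups left SRGN as the only one of the 45 tested, called higher, and 0 lower. Under DESeq2 and under the replicate block the counts were 6 and 3, without the libraries on lanes of 7 days libraries 5 and 2, and leaving out each library gave 5 to 7 higher and 3 to 4 lower.

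From untreated to 1.5 h, the 3 higher calls became 0 with Bonferroni correction (7 at an unadjusted p under 0.05, beside 15.7% of all genes higher) and 1 in a fit of only the compared groups, with the lane as a factor, and without the libraries on lanes of 7 days libraries. They were 2 under DESeq2 and under the replicate block (2.03% and 2.07% of all genes) and 2 to 4 with each library left out (1.88% to 2.3%). Over all genes, with the lane as a factor 312 higher and 236 lower calls became 1781 and 2039 in this comparison, and 777 and 1129 became 1994 and 2094 from untreated to knockdown. Of the untreated libraries, only replicate 5, which stood apart from its group, shared a lane with another group. The lane fit thus ties untreated cells to the other groups through that library alone. A fit of only the compared groups gave 277 and 105 from untreated to 1.5 h, and the set without those libraries 276 and 145. No member passed a filter on the untreated and 1.5 h groups. From untreated to knockdown, the 8 higher calls became 1 with Bonferroni correction and 1 with a filter on the compared groups, which left SRGN alone of the 45 to be tested. They became 2 with the lane as a factor (SRGN and ACP5, beside 13.3% of all genes) and 6 under the replicate block (5.18% of all genes). With each library left out they were 6 to 10 (4.79% to 6.06%). The 1 lower call became 0 under the first 3 of these and in a fit of only the compared groups, where 999 of all genes were called lower (6.66%) and edgeR gave 1 of the 45 at an unadjusted p under 0.05, and 0 to 1 with each library left out. With the lane as a factor, reversed changes were −0.83 (PTPN22) and −0.34 (TAGLN3) from untreated to knockdown and −0.52 (PLEK) from untreated to 1.5 h. The cause was not tested.

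The replicate numbers did not pair the libraries. Correlations of same-numbered libraries ranged from −0.254 to 0.1233, 2 of 30 were over 0.1, and 2 of 20 libraries correlated best with their own number. The limits found 17 genes at no more than 3 counts in untreated libraries and 12 at 30 or more at 7 days. With each library left out, which can only add genes, they found 45 to 53. With scaled counts they found 36 (34 of them shared), and the genes lost included SRGN, FETUB, ACP5, PTPN22, PLEK and TTN. With a median above 5 counts as the limit, 7 genes were detected at 1.5 h and 7 in the knockdown, in place of 0 and 1 with 15 counts in every library. Outside the 7 days libraries the values rest on few counts, which limits their precision.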
